A study of Mus musculus with 8 samples.

Results

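Genes for the subunits of potassium, calcium and sodium channels were followed in pancreatic islets of mice with and without the insulin receptor substrate Irs2. The members were all genes whose symbols start with Kcn and a family letter, with Cacna, Cacnb or Cacng, or with Scn, followed by a number, apart from Kcnj11. Only probe sets that name a single gene were taken, and where a gene had several, the one with the highest mean level stands for it. This gave 118 of the 18193 genes on the array. Of them, 74 reached the expression floor, a mean over the 8 arrays at or above the 40th percentile of all probe sets (log2 5.27), and 44 did not. RefSeq lists 136 symbols of this form, 132 of them protein coding. Of the 74 expressed members, 73 are protein coding, and Kcnq1ot1 is a noncoding RNA whose symbol falls under the rule.

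The islets came from male mice of strain C57Bl/6, either wild type or lacking Irs2 (Irs2-/-). From 10 to 13 weeks of age, for 21 days, they drank distilled water (called untreated) or water with sodium tungstate, a compound studied for lowering blood glucose. The concentration reads 2 mg/ml in the series' design text and 2 mg/dl in the sample labels, so the dose remains unclear. There were 2 arrays in each of the 4 groups. Whether the islets of 1 mouse or of several went onto an array is not stated in the labels, and the p-values therefore cover only the spread among these samples, which may be technical.

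Ion channels set when an islet cell releases its hormone. In a resting beta cell, potassium leaves through KATP channels, built of Kcnj11 with the sulfonylurea receptor Abcc8, and keeps the membrane polarised. When glucose is metabolised these channels close, the membrane depolarises, voltage-gated calcium and sodium channels fire action potentials, and calcium entry drives exocytosis of insulin. Voltage-gated and calcium-activated potassium channels then end each spike, while two-pore potassium channels carry a background leak. Calcium and sodium channels consist of a pore-forming alpha subunit with accessory subunits that set its traffic and gating.

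Irs2 itself, the check of the labels, had log2 levels of 7.91 and 7.73 in untreated and 7.89 and 7.61 in treated wild-type islets. It lay at 4.54 and 4.89 in untreated and 4.78 and 4.86 in treated Irs2-/- islets, so that the genotypes did not overlap. The defining beta cell gene Ins2 was at log2 14.7 or 14.8 on every array, and alpha and delta cell markers were present too. Arrays of a group correlated at 0.980 to 0.992. The untreated wild-type replicate 1 stood apart by the lowest mean of 8 acinar markers (9.53, against 11.0 to 12.8 on the other arrays). The untreated Irs2-/- replicate 1 had the highest mean of 6 lymphocyte markers (8.56, against 4.84 to 7.38). Effects of leaving these arrays out are given with the counts.

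In mice given plain water, 11 of the 74 expressed channel genes passed the comparison of Irs2-/- with wild-type islets, that is, had a limma adjusted p under 0.05 over all 13369 genes tested, 6 higher and 5 lower in Irs2-/- islets. This is 14.9% of the members, beside 16.8% of all genes tested, so the channel genes as a whole changed about as often as any gene. By direction, 8.27% of all genes were called higher and 8.52% lower. The median difference of the members was -0.02, beside -0.01 for all genes, and 24 members had an unadjusted p under 0.05. Higher were Kcnmb4, Scn3a, Kcnj8, Kcnn4, Kcnk6 and Kcnk1, and lower were Kcnj12, Cacna1c, Cacna2d2, Cacna1d and Kcnu1. In fold terms the differences ran from 3.32-fold higher (Kcnmb4) to 3.05-fold lower (Kcnj12), both against a group near the expression floor, so that these folds are limited by background. Differences below are log2 values of Irs2-/- minus wild type ± SE, with 2 arrays per group. The SE comes from the fit of all 8 arrays and pools the spread over the 4 groups. It therefore does not describe the spread within the groups compared alone. With 2 arrays per group, arrays can lie apart without a true difference, and the share of all genes where they do is not given.

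**Figure D1:**
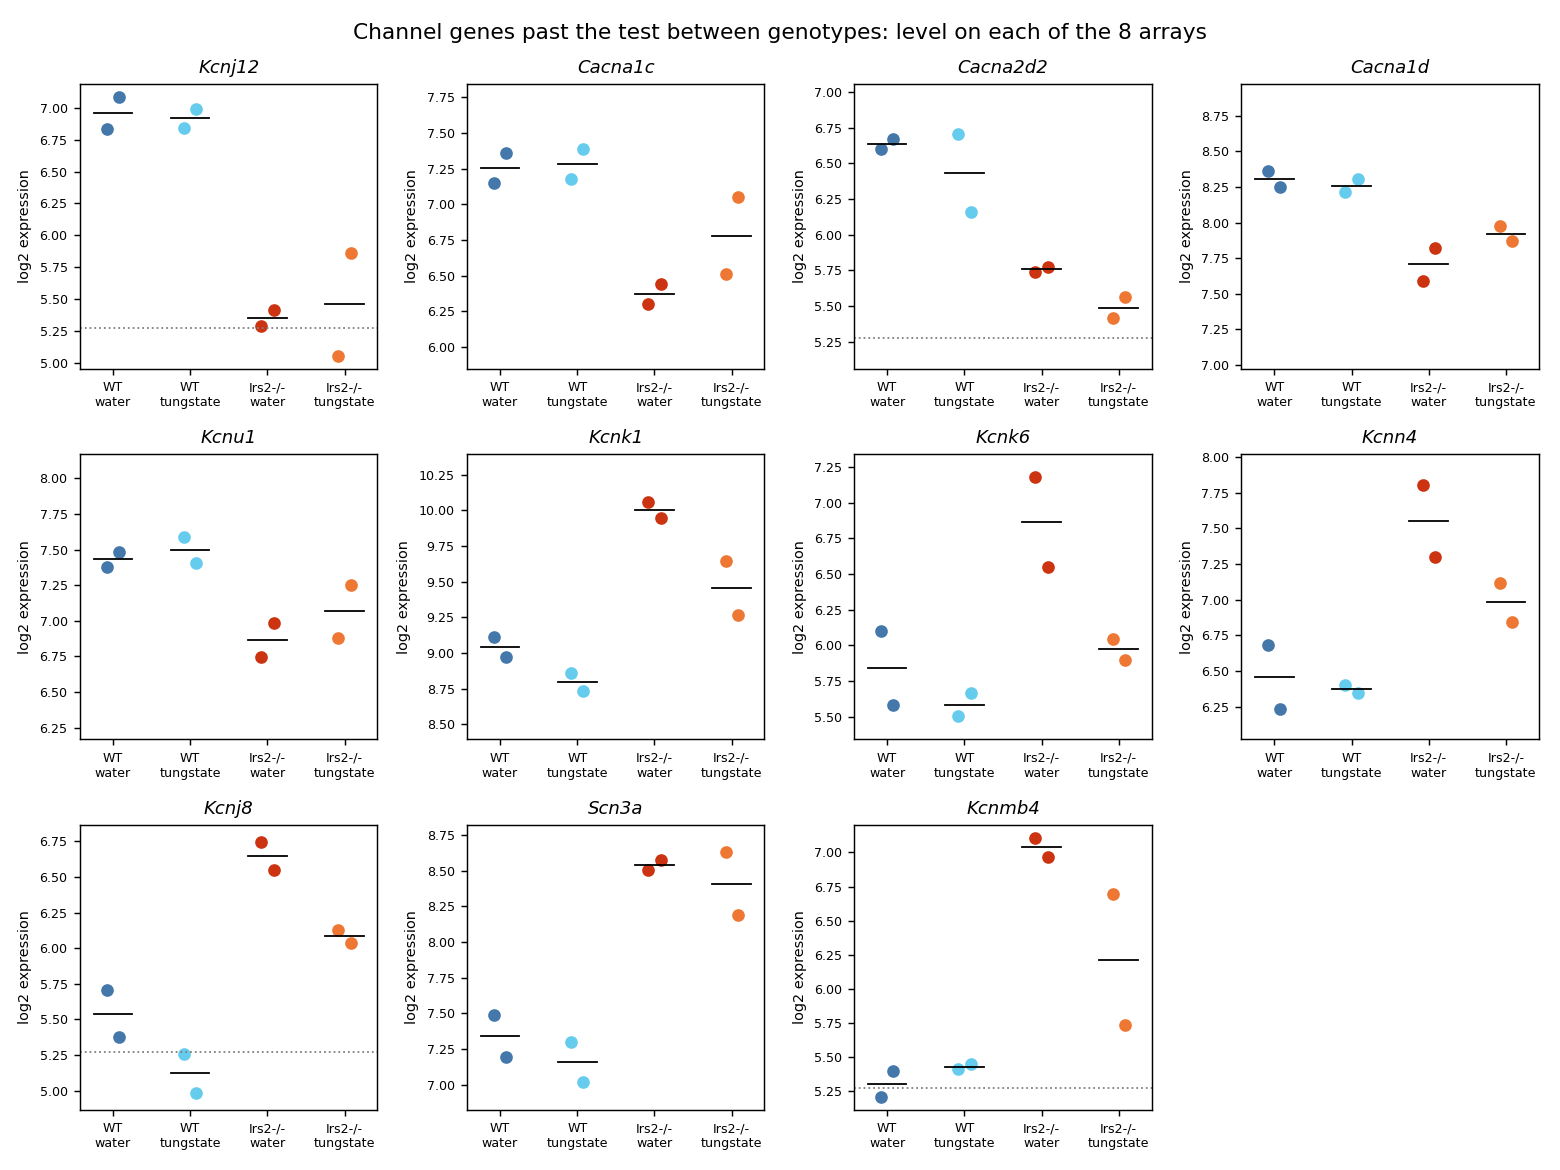
Log2 expression (vertical axis, scales differ between panels) of the 11 channel genes past the test in untreated islets, on each of the 8 arrays. Points are arrays, black lines are group means, and the dotted line is the expression floor (log2 5.27). In each panel the arrays of untreated wild-type and untreated Irs2-/- islets lie apart, which the choice of the genes by a test on these arrays favours.

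The inward rectifiers, which pass potassium more easily into the cell and hold the resting potential, held the largest fall by chosen probe set and a rise side by side. Kcnj12 (probe set 1422871_at), which encodes the strong rectifier Kir2.2, stood at 6.83 and 7.09 in untreated wild-type islets and at 5.29 and 5.42 in untreated Irs2-/- islets. With tungstate it stood at 6.85 and 6.99 in wild type and at 5.05 and 5.86 in Irs2-/-. All 4 wild-type arrays lay above all 4 Irs2-/- arrays, and the latter sat near the floor. The difference was -1.61 ± 0.24 (adjusted p = 0.00694) untreated and -1.46 ± 0.24 (adjusted p = 0.0416) under tungstate.

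Kcnj8 (probe set 1418142_at) encodes Kir6.1, the pore of the KATP channels of blood vessels, which pairs with the sulfonylurea receptor Abcc9. It was at 5.71 and 5.37 in untreated wild-type islets, near the floor, and at 6.75 and 6.55 in untreated Irs2-/- islets. Under tungstate the levels were 5.26 and 4.99 in wild type and 6.13 and 6.04 in Irs2-/-. The genotypes did not overlap within or across treatments, with differences of 1.11 ± 0.16 (adjusted p = 0.00583) and 0.96 ± 0.16 (adjusted p = 0.0416). Abcc9, which is not one of the 118 but lies next to Kcnj8 on chromosome 6 with 0 protein-coding genes between them, was also higher. It measured 7.19 and 6.45 in untreated wild type and 8.30 and 7.95 in untreated Irs2-/-, a difference of 1.31 ± 0.23 (adjusted p = 0.012). Under tungstate it measured 6.27 and 6.12 against 7.70 and 7.57, a difference of 1.44 ± 0.23 (adjusted p = 0.0398). The beta cell receptor Abcc8 differed by -0.11 ± 0.12 untreated and -0.18 ± 0.12 under tungstate and did not pass (adjusted p = 0.587 and 0.534).

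In vessels Kcnj8 and Abcc9 are expressed in smooth muscle cells and pericytes. Of 5 markers of those cells (Acta2, Myh11, Rgs5, Tagln, Des), 0 passed in either genotype comparison. Their mean level was 7.87 and 7.58 in untreated wild type, 8.14 and 8.03 in untreated Irs2-/-, 7.51 and 7.72 in treated wild type, and 8.37 and 7.87 in treated Irs2-/- islets. Within a treatment the genotypes did not overlap in this list. Of 5 stromal markers Pdgfrb, also known from pericytes, passed as higher in untreated Irs2-/- islets (0.90, adjusted p = 0.0418), and the means of that list were 8.77 and 7.45 in wild type against 9.17 and 8.95 untreated, and 6.44 and 6.87 against 8.84 and 8.35 under tungstate. The part of these cells in the Kcnj8 and Abcc9 differences was not tested. In whole islets, more cells of a type and more RNA per cell cannot be told apart.

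The promoters of this pair of neighbours are shown because both genes were higher in Irs2-/- islets in both comparisons. Each run covers 250 bases before to 50 bases after the start site in RefSeq (GRCm38.p6), Kcnj8 at chr6:142571565-142571864 and Abcc9 at chr6:142702225-142702524, both on the minus strand. Capitals mark GGGCGG, the GC box core, on either strand.
Kcnj8: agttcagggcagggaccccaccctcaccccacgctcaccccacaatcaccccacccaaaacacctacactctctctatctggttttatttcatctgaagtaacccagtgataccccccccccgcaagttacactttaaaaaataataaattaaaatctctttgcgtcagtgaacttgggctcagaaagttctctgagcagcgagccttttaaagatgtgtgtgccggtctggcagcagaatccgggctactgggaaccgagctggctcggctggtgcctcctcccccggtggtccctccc
Abcc9: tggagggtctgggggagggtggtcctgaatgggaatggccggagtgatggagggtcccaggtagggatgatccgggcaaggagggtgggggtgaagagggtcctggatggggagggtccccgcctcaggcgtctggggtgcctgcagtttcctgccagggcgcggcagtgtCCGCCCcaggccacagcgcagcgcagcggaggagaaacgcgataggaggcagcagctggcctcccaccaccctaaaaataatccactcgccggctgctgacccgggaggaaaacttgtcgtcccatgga
The Kcnj8 run held 53.3% G and C and 9 CG dinucleotides, the Abcc9 run 65.7% and 16, and the median over all 32851 promoters of this length was 52.7% and 7. GGGCGG was found 1 time in Abcc9, on the minus strand of the promoter as printed, 0 times in Kcnj8, and in 35.7% of all promoters. TATAAA (13.6% of all), CACGTG (7.15%) and TGACGTCA (1.79%), searched on both strands, were found in neither run. No value of this study bears on the binding of a factor there.

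The other 4 expressed inward rectifiers differed little between genotypes. Kcnj6 (Kir3.2), a subunit of channels opened by G proteins, had 5.54 and 6.16 in untreated wild type and 5.75 and 5.83 in untreated Irs2-/- islets, a difference of -0.06 ± 0.19. Kcnj9, Kcnj10 and Kcnj4 lay at -0.11, 0.13 and 0.16, and 8 of the 14 inward rectifier genes were under the floor.

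Two-pore channels leaned upward in untreated Irs2-/- islets, with 8 of 10 expressed members above 0 and 2 called higher. Of the 8, Kcnk15 (0.10), Kcnk7 (0.04) and Kcnk5 (0.004) were close to 0. Over all genes tested 6487 of 13369 differences were above 0 and 8.27% were called higher, and the lean of the class was not tested. Kcnk1 (probe set 1448690_at), the TWIK-1 leak channel, stood at 9.12 and 8.97 in wild type and at 10.06 and 9.94 in Irs2-/-, a difference of 0.96 ± 0.15 (adjusted p = 0.00787), and the arrays did not overlap. A further probe set of Kcnk1 gave 0.90 (adjusted p = 0.0188 with all probe sets tested). Kcnk6 (probe set 1435342_at), the TWIK-2 channel, had 6.10 and 5.58 in wild type against 7.18 and 6.55 in Irs2-/-, a difference of 1.02 ± 0.23 (adjusted p = 0.0252).

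Kcnk16, the TALK-1 channel known from the beta cell, had 10.13 and 10.05 against 10.81 and 10.48. Its difference of 0.56 ± 0.17 did not pass (adjusted p = 0.0574). Kcnk3, the acid-sensitive TASK-1 channel, had 6.67 and 6.64 against 6.41 and 6.57, a difference of -0.16 ± 0.14. Among the remaining two-pore genes Kcnk13 (0.52) and Kcnk10 (0.37) were the highest, and neither passed.

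Calcium-activated potassium channels link the calcium signal back to the membrane potential. Their largest difference was in Kcnmb4 (probe set 1449471_at), the beta4 accessory subunit that alters the gating of the large-conductance BK channel. It was at the floor in wild-type islets, with 5.21 and 5.40 untreated and 5.41 and 5.45 under tungstate. In Irs2-/- islets it reached 7.11 and 6.97 untreated and 6.69 and 5.73 under tungstate. Every Irs2-/- array lay above every wild-type array, and the difference was 1.73 ± 0.27 untreated (adjusted p = 0.0078) and 0.78 ± 0.27 under tungstate (adjusted p = 0.201, which did not pass). Kcnmb4os1 and Kcnmb4os2, noncoding RNAs named for the strand opposite Kcnmb4, were under the floor. The BK pore gene Kcnma1 had 8.51 and 8.27 in untreated wild type and 8.07 and 8.14 in untreated Irs2-/- islets, a difference of -0.29 ± 0.12 that did not pass (adjusted p = 0.152). A further 3 probe sets of Kcnma1 above the floor gave -0.33, -0.47 and -0.50 and did not pass either, and the accessory gene Kcnmb2 lay at -0.40 ± 0.15 (adjusted p = 0.104).

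Kcnn4 (probe set 1435945_a_at) encodes the intermediate-conductance channel KCa3.1, which is also known from T cells and macrophages. It measured 6.68 and 6.23 in untreated wild type and 7.81 and 7.30 in untreated Irs2-/- islets, a difference of 1.10 ± 0.21 (adjusted p = 0.0142) without overlap, and a further probe set gave 0.83 without passing (adjusted p = 0.102). Kcnu1 (probe set 1422838_at), a relative of the BK pore known mainly from sperm, was lower, with 7.38 and 7.48 against 6.75 and 6.98, a difference of -0.56 ± 0.16 (adjusted p = 0.0469). Of the small-conductance channels, Kcnn1 and Kcnn2 lay at -0.24 and -0.02, and Kcnn3 was under the floor with a mean of 5.20.

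Immune cell markers moved on the same arrays as Kcnn4 and Kcnk6. All 5 macrophage markers (Cd68, Aif1, Csf1r, C1qc, Tyrobp) passed as higher in untreated Irs2-/- islets, with list means of 6.97 and 6.80 in wild type and 8.35 and 8.59 in Irs2-/-. Of 6 lymphocyte markers 3 passed as higher (Cd3d, Cd3g, Cd2), and the list means were 6.62 and 4.91 against 8.56 and 7.38. In treated Irs2-/- islets the macrophage mean was 7.06 and 7.20 and the lymphocyte mean 5.51 and 6.32, Kcnn4 was at 7.12 and 6.84, and Kcnk6 at 6.04 and 5.90. The part of these cells in the Kcnn4 and Kcnk6 differences was not tested.

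**Figure D2:**
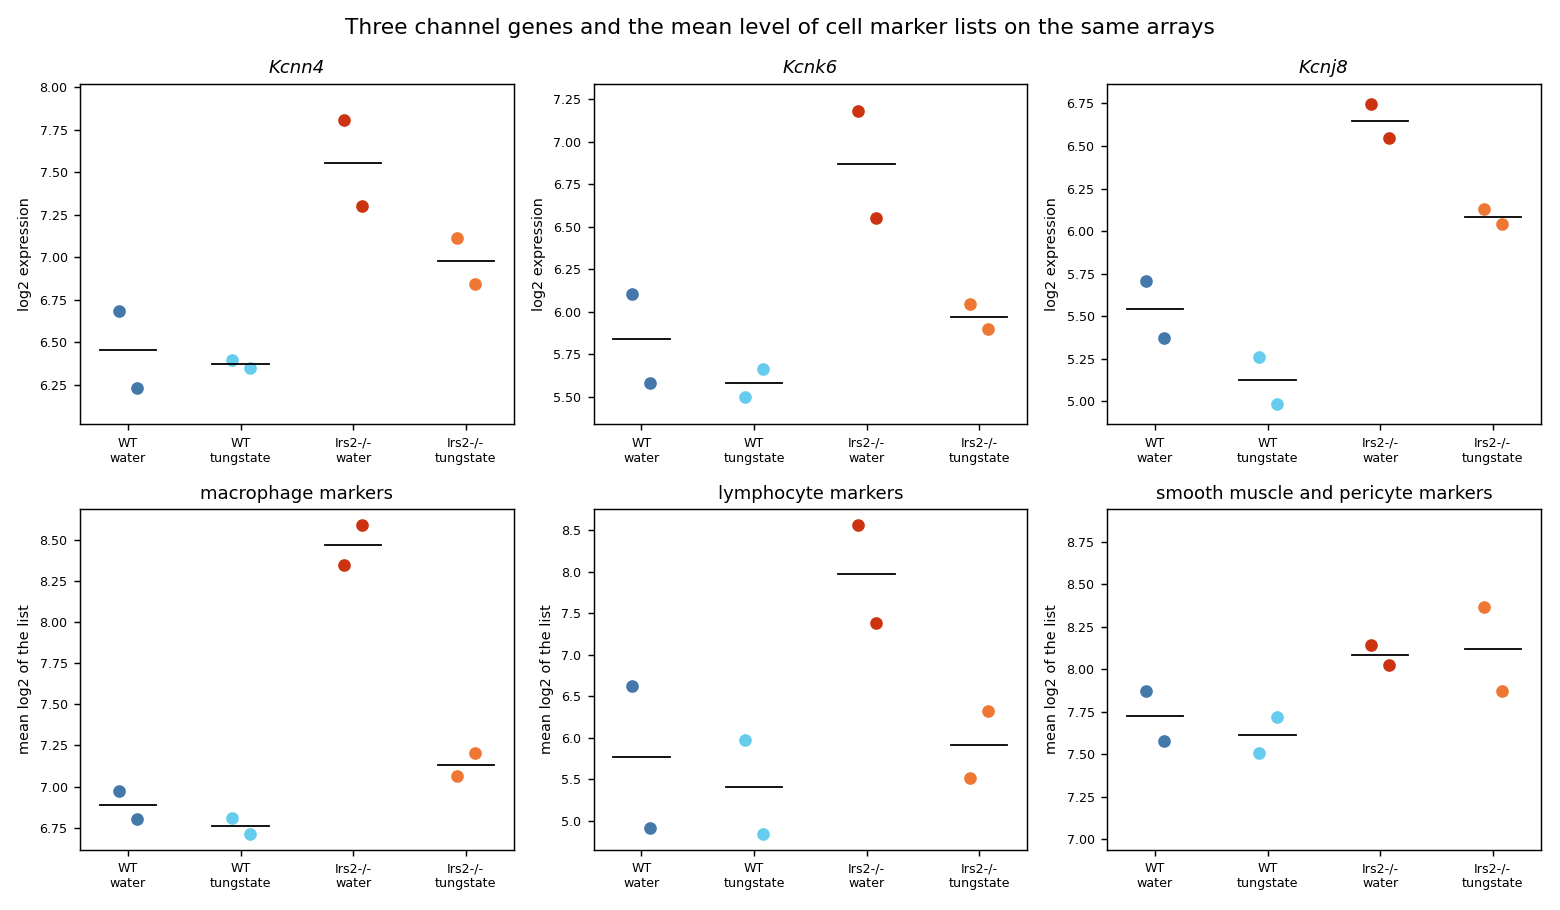
Top row, log2 expression of Kcnn4, Kcnk6 and Kcnj8 on each array. Bottom row, the mean log2 level of the macrophage (5 genes), lymphocyte (6 genes) and smooth muscle and pericyte (5 genes) marker lists on the same arrays. Points are arrays, lines are group means, and scales differ between panels. The macrophage means of the untreated Irs2-/- arrays (8.35 and 8.59) lie above all other arrays, as do their Kcnn4 and Kcnk6 levels.

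Voltage-gated calcium channels gave only lower calls. All 6 expressed alpha1 genes had differences below 0, and 2 of them passed, the L-type pores Cacna1c (Cav1.2) and Cacna1d (Cav1.3), through which most glucose-driven calcium enters beta cells. Over all genes tested, 6882 of 13369 differences were below 0 and 8.52% were called lower. Cacna1c (probe set 1435730_at) was at 7.15 and 7.36 in untreated wild type and at 6.30 and 6.44 in untreated Irs2-/- islets, a difference of -0.88 ± 0.19 (adjusted p = 0.0202). Its second probe set gave -0.67 (adjusted p = 0.0223 with all probe sets tested). Cacna1d (probe set 1427974_s_at) was at 8.36 and 8.25 against 7.59 and 7.82, a difference of -0.60 ± 0.12 (adjusted p = 0.0184), and its second probe set gave -0.35 and did not pass (adjusted p = 0.138). For both genes the arrays of the genotypes did not overlap.

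The other alpha1 genes did not pass, and Cacna1f hardly differed (-0.02 ± 0.13, adjusted p = 0.935). Cacna1a, the P/Q-type pore, had 7.56 and 7.79 against 7.09 and 7.37, a difference of -0.45 ± 0.18 (adjusted p = 0.119). Cacna1b, the N-type pore, differed by -0.36 ± 0.12 (adjusted p = 0.0825). Cacna1h, a low-voltage T-type pore, had 5.59 and 5.51 against 5.19 and 5.52, close to the floor, and differed by -0.20 ± 0.15. Cacna1e, the R-type pore, and Cacna1g lay just under the floor, with means of 5.23 and 5.24, beside Kcnk15 and Scn1a just above it, both at 5.28. In untreated islets the group means of Cacna1e were 5.09 in wild type and 5.45 in Irs2-/-, and those of Cacna1g 5.16 and 5.15. Cacna1s, further under the floor, had 4.48 and 5.04. The lower direction of the expressed alpha1 genes was thus not seen in Cacna1e and Cacna1s, which were not tested in the main fit.

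Accessory calcium channel subunits differed from gene to gene. Cacna2d2 (probe set 1450754_at), an alpha2delta subunit that brings the pore to the membrane, was at 6.60 and 6.67 in untreated wild type and at 5.74 and 5.78 in untreated Irs2-/- islets, a difference of -0.88 ± 0.17 (adjusted p = 0.0162). Over the mean of its probe sets the difference was -0.44 and did not pass. Cacna2d1, its relative, was level at 10.68 and 10.48 against 10.65 and 10.57, a difference of 0.03 ± 0.12. The beta subunit gene Cacnb2 had 7.87 and 7.89 against 7.41 and 7.55, a difference of -0.40 ± 0.13 that did not pass (adjusted p = 0.0773), and Cacnb1 lay at -0.28 ± 0.12. Cacng4, a gamma subunit gene, had 6.47 and 6.14 against 5.99 and 6.19, a difference of -0.21 ± 0.15, and the 4 expressed gamma genes spanned -0.21 to 0.06.

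Beta cell markers fell on the same arrays. Of Ins2, Slc2a2, Ucn3, Pdx1 and Nkx6-1, 4 passed as lower in untreated Irs2-/- islets. Ins2 did not (-0.03), but it is the brightest probe set on every array, where a change may not be measurable. The list means were 12.16 and 12.08 in wild type and 10.67 and 11.02 in Irs2-/-. Both delta cell markers passed as lower too, and 0 of 3 alpha cell markers passed. Of the latter, Gcg (14.15 to 14.39) and Ttr (13.89 to 14.12) were bright as well, where a change may be harder to measure. Irx2 differed by -0.49 ± 0.26. With the acinar level as a covariate Cacna1d (-0.57) and Kcnu1 (-0.67) no longer passed, with differences close to those without it, and Cacna1c, Cacna2d2 and Kcnj12 did. The part of a changed cell make-up in the calcium channel differences was not tested.

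Sodium channels start the action potential in many islet cells. Scn3a (probe set 1439204_at), which encodes Nav1.3, the isoform described as a main carrier of sodium current in mouse islets, was at 7.49 and 7.19 in untreated wild type and at 8.50 and 8.58 in untreated Irs2-/- islets. Under tungstate it was at 7.30 and 7.02 against 8.63 and 8.19. The lowest Irs2-/- array lay above the highest wild-type array, and the difference was 1.20 ± 0.18 untreated (adjusted p = 0.00743) and 1.25 ± 0.18 under tungstate (adjusted p = 0.0299). A second probe set of Scn3a was under the floor at a mean of 4.44, and the mean of both gave 0.59, past the test, untreated and 0.64, which did not pass, under tungstate.

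Scn8a (Nav1.6) leaned the other way, with 7.12 and 7.06 against 6.40 and 6.79 and a difference of -0.50 ± 0.15 (adjusted p = 0.0585). Scn9a (Nav1.7), of which beta cells hold much, had 7.89 and 8.18 against 7.77 and 7.81, a difference of -0.24 ± 0.13, on a probe set of a type whose probes can bind related transcripts. Scn7a was spread widely in wild-type islets (6.49 and 4.99) and reached 0.68 ± 0.41. Of the beta subunits Scn3b had 7.04 and 6.26 against 6.51 and 6.46, a difference of -0.16 ± 0.25, and Scn2b lay at -0.61 ± 0.33.

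Voltage-gated potassium channel pores were the largest class, with 19 of 31 genes expressed (Kcnq1ot1 not counted). By the chosen probe sets 0 passed in limma, 2 had an unadjusted p under 0.05, and the differences ran from -0.51 (Kcna2) to 0.49 (Kcnc2). Kcnf1, a silent subunit that joins other voltage-gated pores, was an exception by its second probe set. The chosen one had 6.22 and 6.45 in untreated wild type against 5.79 and 6.06 in untreated Irs2-/- islets, a difference of -0.41 ± 0.15 (adjusted p = 0.108). The second one (1454768_at) had 6.67 and 6.56 against 4.25 and 4.10, and 6.63 and 7.07 against 3.99 and 4.34 under tungstate, so that the Irs2-/- arrays were under the floor and far from overlap. In the fit over all probe sets this was -2.44 ± 0.18 (adjusted p = 0.00159) and -2.69 ± 0.18 (adjusted p = 0.00534), and it passed in both comparisons without each array in turn. The mean of both probe sets of Kcnf1 gave -1.43 and -1.54, past the test in both. Why the probe sets differ in size was not tested.

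Over all probe sets above the floor, 14 of the 122 that belong to channel genes passed in untreated islets, beside 12.2% of 27022, and 1 under tungstate, that of Kcnf1, beside 0.3%. Of the 14, 4 were not the chosen ones: those of Cacna1c, Kcnk1 and Kcnf1, and 1 of Kcnab3 (0.59), whose call ended without each of the 4 arrays in turn.

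Kcnh2 (ERG1), which shapes repolarisation, had 9.01 and 8.94 against 8.64 and 8.90, a difference of -0.21 ± 0.17. Kcnq1, whose gene region is linked to type 2 diabetes in people, had 6.37 and 6.21 against 6.51 and 6.59, a difference of 0.26 ± 0.12 (adjusted p = 0.172). Of the 8 expressed auxiliary genes 0 passed and 2 had an unadjusted p under 0.05, Kcnab2 (0.69 ± 0.22, adjusted p = 0.0673) and Kcne4 (0.60 ± 0.19, adjusted p = 0.0689).

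**Figure D3:**
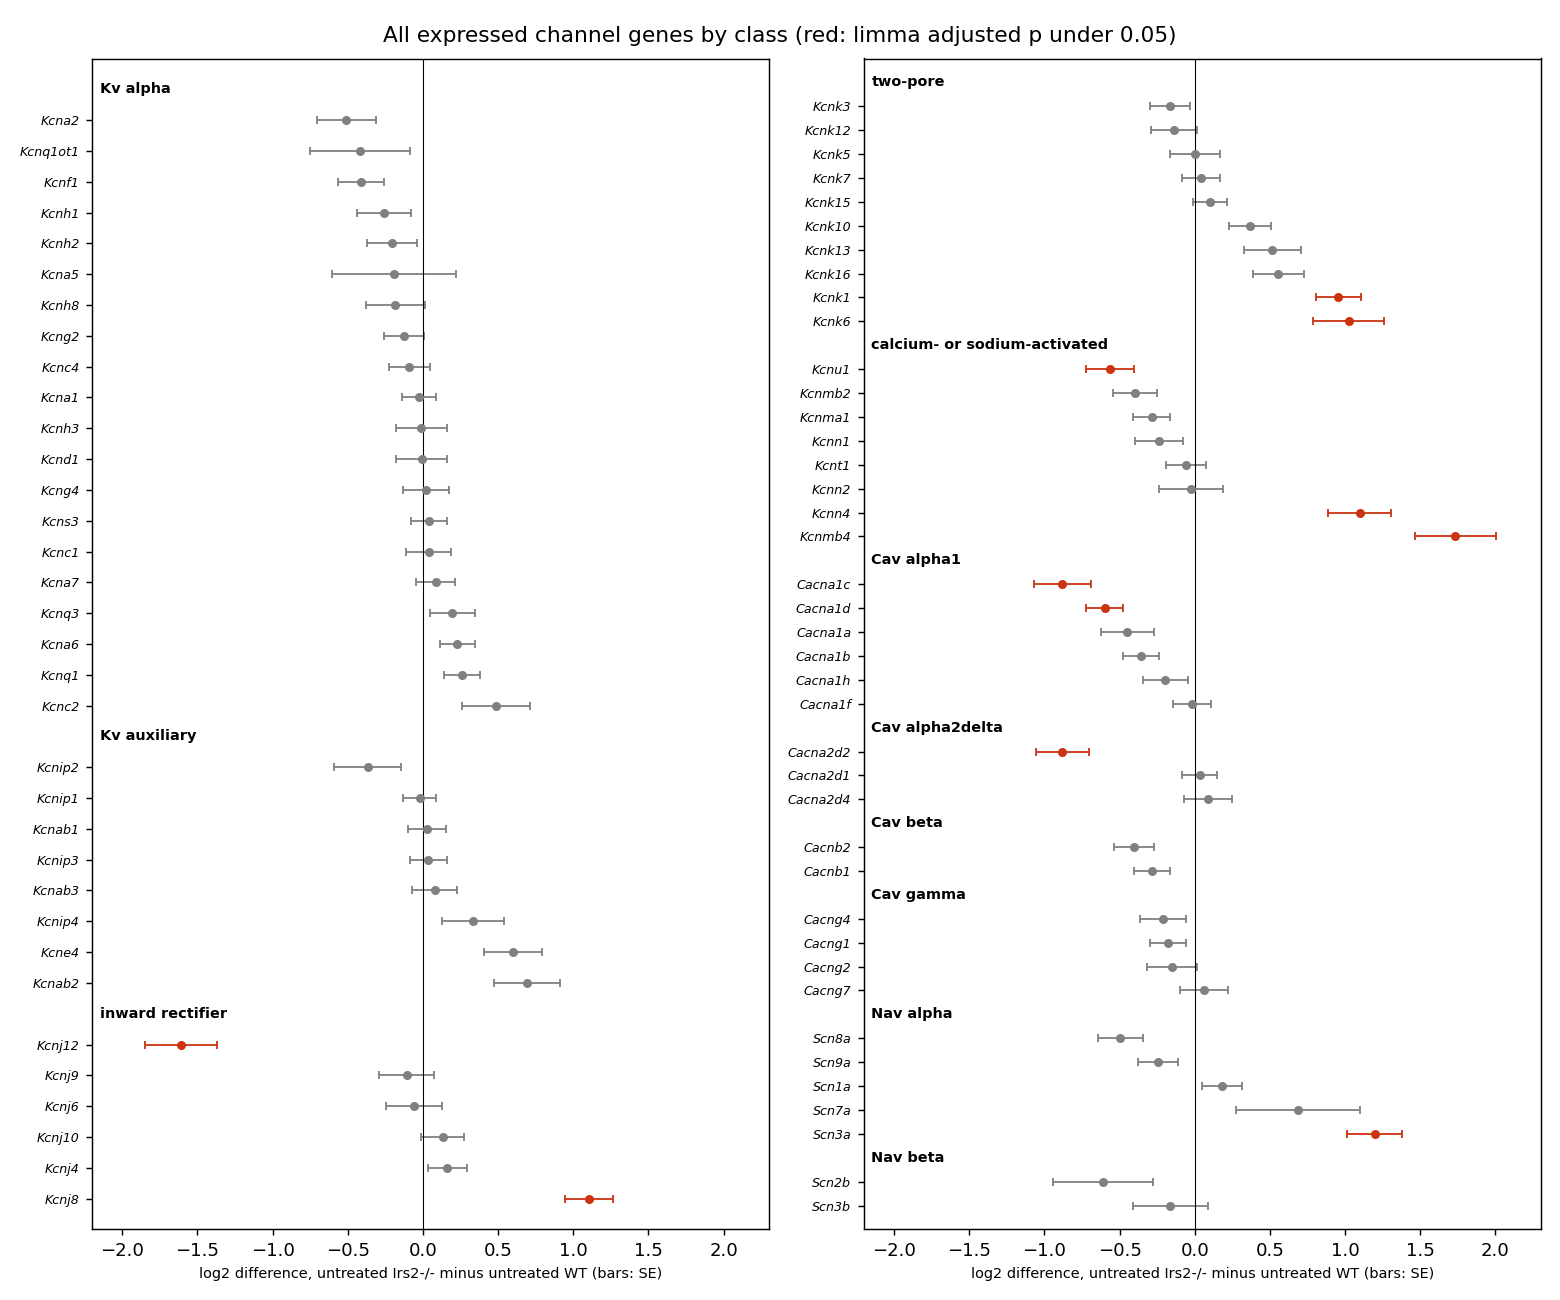
Log2 difference of untreated Irs2-/- minus untreated wild-type islets (horizontal axis) for all 74 expressed channel genes, grouped by class. Points are the fitted differences, bars are SE, and red marks the 11 genes with a limma adjusted p under 0.05. Only the chosen probe set of each gene is drawn. By these the 20 genes headed Kv alpha, Kcnq1ot1 included, lie between -0.51 and 0.49. The second probe set of Kcnf1 (-2.44) is not shown. All 6 expressed calcium channel alpha1 genes lie below 0, and alpha1 genes under the floor are not drawn.

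How far the 11 calls rest on single arrays differed by gene. Kcnj8, Kcnj12, Kcnk1, Kcnmb4 and Scn3a passed without each of the 4 arrays in turn, and the other 6 did not. The count fell to 8 (10.8% of the members, beside 6.82% of all genes) without untreated wild-type replicate 1. It fell to 5 (6.76%) without wild-type replicate 2 or without Irs2-/- replicate 1, beside 4.88% and 5.69% of all genes, and was 13 (17.6% beside 12%) without Irs2-/- replicate 2. The calls over all genes fell without each of the 4 arrays, while those of the members rose without Irs2-/- replicate 2. The lower calls went from 5 to 1 without any of the first 3 of these arrays. Without both replicate 1 arrays, which stood apart in their markers, 2 members passed (2.7% beside 2.75% of all genes), Kcnj8 being the 1 of the original 11 among them. The 44 members under the floor, tested with no filter, gave 0 calls by limma, and 3 had an unadjusted p under 0.05. In 6 of these 44 the mean of at least 1 group reached the floor. Of the 33 expressed members with more than 1 probe set above the floor, 23 had all of them on the same side of 0 in this comparison.

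Under tungstate the genotypes differed in 3 of the 74 members, the 3 already given: Kcnj12 lower, Kcnj8 and Scn3a higher. This is 4.05% of the members beside 1.02% of all genes (0.636% higher and 0.389% lower), and 19 members had an unadjusted p under 0.05. The 3 calls became 0 without wild-type replicate 1, without wild-type replicate 2 or without Irs2-/- replicate 1 of the treated arrays, where all genes gave 0.0224%, 0.0299% and 0.135%, and 8 without Irs2-/- replicate 2 (10.8% beside 5.08%). Next to the threshold lay Cacna2d2, at 6.70 and 6.16 against 5.42 and 5.56 (-0.94 ± 0.17, adjusted p = 0.0544), and Kcnq1, at 6.11 and 6.26 against 6.82 and 6.70 (0.57 ± 0.12, adjusted p = 0.0705). Kcnk1 followed with 8.86 and 8.73 against 9.64 and 9.26 (0.66 ± 0.15, adjusted p = 0.0867).

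The L-type pores were again below 0 under tungstate but did not pass. Cacna1c was at 7.18 and 7.39 in wild type and 6.51 and 7.05 in Irs2-/- (-0.50 ± 0.19, adjusted p = 0.239), and Cacna1d at 8.21 and 8.30 against 7.97 and 7.87 (-0.34 ± 0.12, adjusted p = 0.236). Scn7a had the largest positive difference, from 4.76 and 4.69 in wild type to 6.58 and 6.09 in Irs2-/- (1.61 ± 0.41, adjusted p = 0.107), and its levels in treated wild type were under the floor. Stromal markers moved on those arrays: Col3a1 passed as higher, 1 of 5, with list means of 6.44 and 6.87 against 8.84 and 8.35, and their part in the Scn7a difference was not tested.

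The untreated and the treated genotype comparison share no arrays. Across the 74 members their differences correlated with Pearson's r of 0.835 and Spearman's rho of 0.795, as a description over genes that are not independent, beside 0.778 and 0.73 over all 13369 genes. Kcnj12, Kcnj8 and Scn3a had close to equal differences in both, and Kcnmb4, Kcnk6 and Kcnn4 had smaller ones under tungstate (0.78, 0.39 and 0.61). None of these gaps passed as an interaction.

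**Figure D4:**
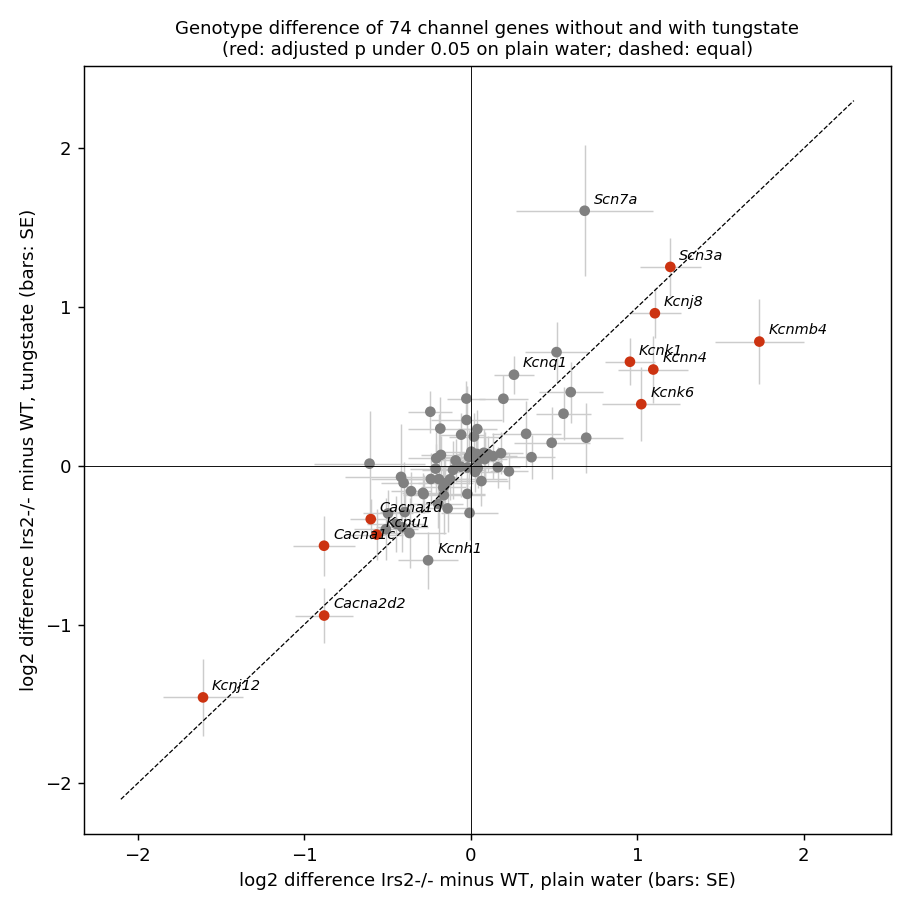
Genotype difference (log2, Irs2-/- minus wild type) of the 74 expressed channel genes in untreated mice (horizontal axis) and under tungstate (vertical axis), with SE bars. Red marks the 11 genes past the test in untreated islets, and the dashed line marks equal differences. Kcnj12, Scn3a and Kcnj8 lie near the line, and Kcnmb4, Kcnk6 and Kcnn4 lie below it.

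For tungstate in Irs2-/- islets 0 of 74 members passed by limma, beside 0.494% of all genes, and 8 had an unadjusted p under 0.05. The smallest adjusted p was 0.167, for Kcnk6, whose levels went from 7.18 and 6.55 to 6.04 and 5.90 (-0.89 ± 0.23). Kcnmb4 went from 7.11 and 6.97 to 6.69 and 5.73, a difference of -0.82 ± 0.27 (adjusted p = 0.246). The treated replicates were far apart: without replicate 1 of the treated Irs2-/- arrays Kcnmb4 alone passed, at -1.30, and its adjusted p ranged from 0.0202 to 0.67 over the alternatives. Kcnk1 (-0.55 ± 0.15), Kcnj8 (-0.56 ± 0.16) and Kcnn4 (-0.57 ± 0.21) had negative differences that did not pass. This comparison shares the untreated Irs2-/- arrays with the untreated genotype comparison, so a high level there enters both with opposite sign.

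For tungstate in wild-type islets 0 of 74 members passed by limma, beside 0% of all genes, and 4 had an unadjusted p under 0.05. Of these Scn7a (-1.01 ± 0.41) was the largest, and its untreated replicates lay 6.49 and 4.99. Scn9a went from 7.89 and 8.18 to 7.63 and 7.61 (-0.42 ± 0.13), and Kcnj8 differed by -0.42 ± 0.16. In the interaction of genotype and tungstate 0 of 74 members passed, beside 0.0224% of all genes, and 3 had an unadjusted p under 0.05. The smallest adjusted p was 0.691.

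Of 44 other genes of excitability and calcium handling, chosen as partners or regulators of these channels, 35 were tested. In untreated Irs2-/- islets 7 of them passed, 2 higher and 5 lower, or 20% beside 16.8% of all genes. Dpp10, a partner of Kv4 potassium channels, was at 8.47 and 8.24 in wild type and 5.71 and 5.83 in Irs2-/-, a difference of -2.59 ± 0.29 (adjusted p = 0.00274). Under tungstate it was at 8.77 and 7.71 against 5.76 and 5.72 (-2.50 ± 0.29, adjusted p = 0.0199). Neither comparison had overlapping arrays.

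Trpm5, a calcium-activated cation channel of the beta cell, was at 10.10 and 10.03 against 7.28 and 7.71 in untreated islets (-2.58 ± 0.32, adjusted p = 0.00338). In treated islets it was at 10.45 and 10.12 against 8.07 and 9.13, a difference of -1.68 ± 0.32 that did not pass (adjusted p = 0.0576). Atp2a2 and Atp2a3, the calcium pumps of the endoplasmic reticulum, differed by -0.86 ± 0.16 (adjusted p = 0.0134) and -0.67 ± 0.13 (adjusted p = 0.0164). Ank2, the membrane scaffold ankyrin-B, differed by -0.76 ± 0.14 (adjusted p = 0.0134), and by -0.31 over the mean of its probe sets, which did not pass. Besides Abcc9, which gave 0.76 over the mean of its probe sets, the mechanically gated channel Piezo1 was higher (0.71 ± 0.15, adjusted p = 0.0174). Of these genes only Dpp10 and Abcc9 passed under tungstate, 2 of 35, or 5.71% beside 1.02% of all genes. In untreated islets the calls of Atp2a2, Atp2a3, Ank2 and Piezo1 each ended without 3 of the 4 arrays in turn. That of Abcc9 ended without Irs2-/- replicate 1, while Dpp10 and Trpm5 passed without each of the 4. The untreated Dpp10 and Trpm5 calls ended without both untreated replicate 1 arrays. Under tungstate the Abcc9 call ended over the mean of its probe sets. It also ended without wild-type replicate 1, wild-type replicate 2 or Irs2-/- replicate 1 of the treated arrays. The treated Dpp10 call ended without Irs2-/- replicate 1. Tungstate within a genotype gave 0 of 35 by limma, with 4 in Irs2-/- and 1 in wild type at an unadjusted p under 0.05.

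**Figure D5:**
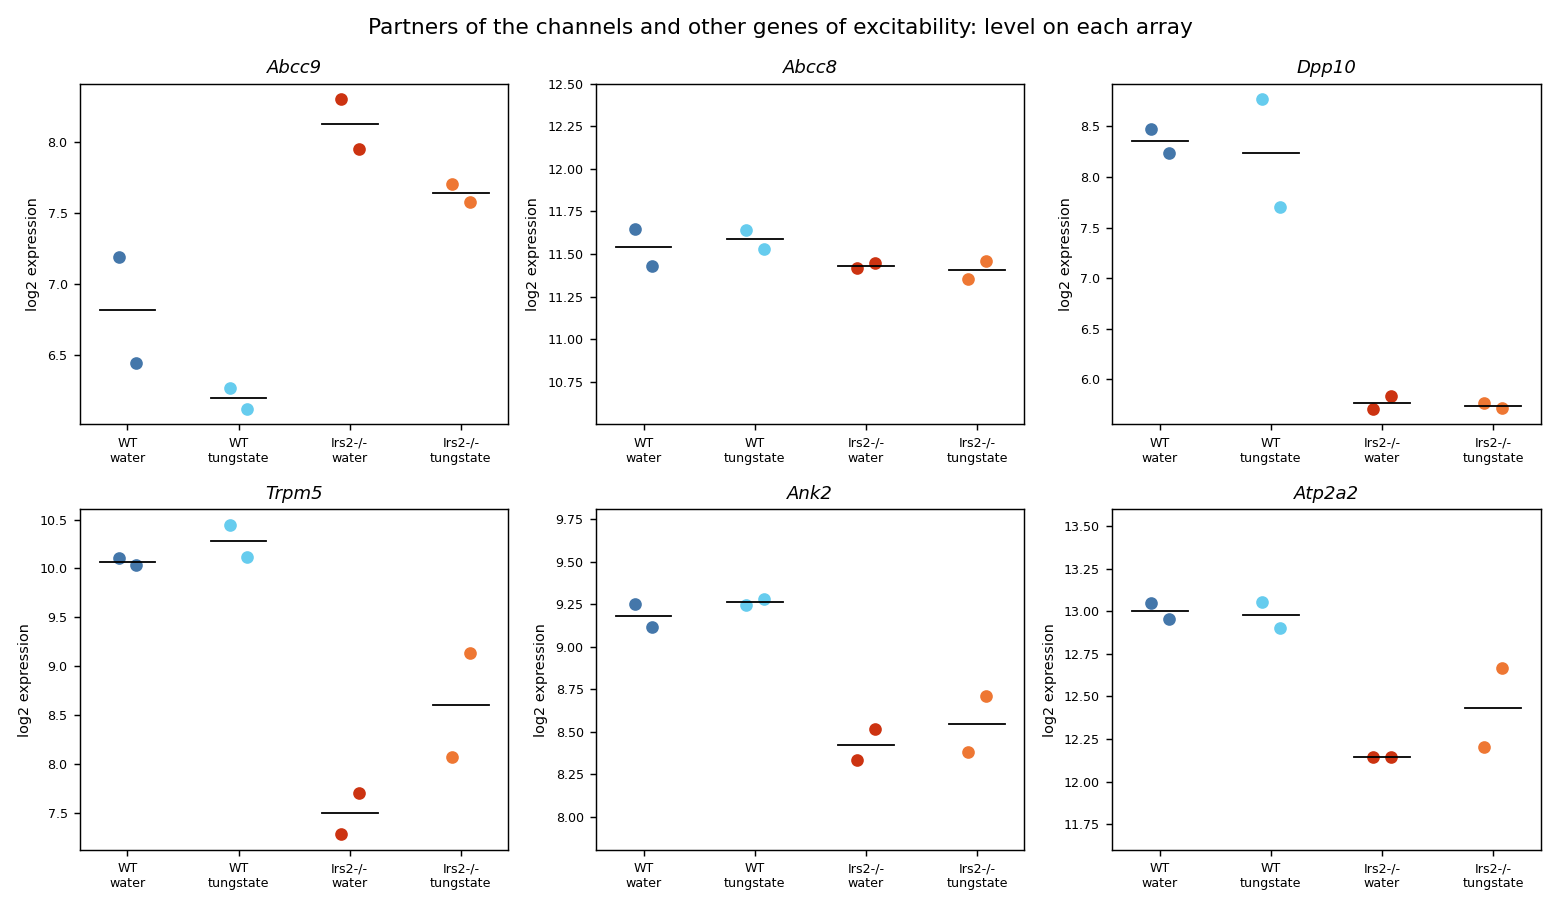
Log2 expression of 6 other genes of excitability on each of the 8 arrays (points), with group means (lines) and scales that differ between panels. Dpp10 lies between 5.71 and 5.83 on all 4 Irs2-/- arrays and at 7.71 or more on all wild-type arrays, Abcc9 is higher in Irs2-/- islets with and without tungstate, and Abcc8 lies between 11.35 and 11.65 throughout.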

How the data were processed

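Islet RNA of 4 groups was hybridised to Affymetrix arrays, 2 per group. Values were used as the authors deposited them: log2 expression for each probe set, from RMA in the affy package (R 2.7.0) per the submitters' processing notes. Besides 64 controls the arrays hold 45037 probe sets, and 34945 of these name 1 gene. A gene stayed in if its highest probe set had a mean at or above the 40th percentile (log2 5.27), which kept 13369. limma 3.58.1 (R 4.3.3, data.table version 1.17.8) fitted the 4 group means and moderated the variances (residual degrees of freedom 4, prior 3.89). Within each contrast, of which there were 5, the Benjamini-Hochberg adjustment ran over all genes, and the threshold was 0.05. The SE uses a spread pooled over the groups, and its median for a member's difference was 0.15. The number of arrays limits the precision. Levels of different probe sets are not compared.

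Array values are given for members past the threshold and for a fixed list of 25 islet channel genes (20 with a probe set of their own), and other members by class. Genes named as ends of a range or next to the threshold, Scn7a, Pdgfrb, and the second probe sets of Kcnf1 and Kcnab3, fall outside this rule and were picked with their values in view. The members and lists were chosen with earlier results of these data known. The labels give no pairing by replicate number. Deviations of same-numbered arrays correlated at -0.0658 to 0.418 between groups, the highest between untreated wild type and untreated Irs2-/-. These correlations cannot decide whether same-numbered samples were handled together. Each result was recomputed without the filter, with a 60th percentile filter, with trended robust variances, from the compared arrays alone, with a replicate block, after median centring or quantile normalization, from the mean over a gene's probe sets, with the acinar marker level in the fit, at a threshold of 0.1, and without each array in turn. Testing all probe sets and leaving out both untreated replicate 1 arrays were added after seeing the data. The workflow was tested on simulated data.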

Additional observations from a re-analysis of the deposited data

Results flagged for a closer look

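For Kcnmb4 both treated wild-type arrays lay above both untreated ones, by a difference of 0.13 near the floor, and both treated Irs2-/- arrays lay below both untreated ones (-0.82). Neither difference passed in limma. The interaction was -0.95 and did not pass in limma (adjusted p = 0.766). For Scn9a the tungstate difference was -0.42 in wild type and 0.17 in Irs2-/- islets, without overlap of the arrays and without passing, and its genotype difference was -0.24 untreated and 0.34 under tungstate. Its interaction was 0.58 and did not pass (adjusted p = 0.691). The Scn9a probe set is of a type whose probes can bind related transcripts. Its other probe sets above the floor overlapped in Irs2-/- islets. Probe set 1442809_at had 6.43 and 6.51 untreated against 6.62 and 6.33 treated, and 1457819_at had 5.32 and 5.11 against 5.58 and 5.19. In wild type, 1442809_at lay apart (6.50 and 6.74 against 6.11 and 6.28) and 1457819_at overlapped (5.42 and 5.76 against 5.44 and 5.34).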

How the results depend on the processing

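No called difference changed direction under any alternative run. In untreated islets 11 members passed, 6 of 35 tested with the 60th percentile filter, 17 at an adjusted p under 0.1, 2 without both untreated replicate 1 arrays, and 5 to 13 without 1 array. Under tungstate 3 passed, 1 with the 60th percentile filter, 6 at an adjusted p under 0.1, 0 of the chosen probe sets with all probe sets tested (where a second probe set of Kcnf1 passed), and 0 to 8 without 1 array. For tungstate in Irs2-/- islets the count was 0, and 0 to 1 without 1 array. With the replicate number as a block 13, 3 and 0 members passed in these comparisons (17.6%, 4.05% and 0%, beside 18.2%, 1.32% and 0.613% of all genes). The first added Kcne4 and Kcnf1, and the labels give no pairing by replicate number. For tungstate in wild-type islets and the interaction the count was 0 under every alternative run. The other alternatives gave 9 to 12 members untreated and 2 to 4 under tungstate. The Kcnj8 call in untreated islets remained under 15 of 15 alternatives, and the Kcnu1 call was lost under 10 of 16. Members near the floor, among them Kcnj12 in Irs2-/- and Kcnj8 and Kcnmb4 in wild-type islets, are limited by the signal over background.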
